A study of Homo sapiens with 11 samples.

Results

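The genes of cholesterol and fatty acid synthesis were followed through hypoxia in RWPE1 cells, an immortalized and non-tumorigenic line of human prostate epithelium. The group holds 31 genes of the 60676 in the count table and was named gene by gene: 7 enzymes that use molecular oxygen, 18 enzymes that do not, and 6 genes that are no enzymatic step (5 of sterol sensing and 1 sterol carrier). All 31 passed the filter on low counts, which kept 19981 genes. The libraries came from untreated cells in normoxia (n = 3) and from cells kept at 1% oxygen for 6 h (n = 3), 12 h (n = 3) or 24 h (n = 2), each from total RNA of the same line. The paper describes triplicate samples, whereas the 24 h group used here holds 2 libraries. The medium of the hypoxic cells also held 10 mM HEPES buffer, so oxygen and buffer cannot be told apart in any comparison with normoxia. The labels do not say that replicates came from separate cultures, so p-values measure the spread between these libraries, which may be technical. All members come from 1 cell line, whose medium contained pituitary extract and EGF and no serum.

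Cholesterol is built from acetyl-CoA through mevalonate, farnesyl diphosphate and squalene. Squalene is then oxidized, closed into lanosterol, and trimmed and rearranged to cholesterol. Several of these later steps, and the desaturation of fatty acids, consume molecular oxygen. The genes are switched on by the SREBP transcription factors, which are carried out of the endoplasmic reticulum by SCAP when sterols are scarce and held there by the INSIG proteins when sterols are plentiful.

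Between 27496009 and 49488345 reads were counted per library. TMM normalization factors ran from 1.29 to 1.32 in normoxia and were 0.851 and 0.539 in the pair at 24 h, which stood apart from each other. Mitochondrially encoded genes took 10.2% to 10.3% of counts in normoxia, 4.30% to 5.27% at 6 h, 4.78% to 6.78% at 12 h, and 1.74% and 0.369% in the 24 h pair. The hypoxia check gene EGLN3, a prolyl hydroxylase, had log2 fold changes of 6.23, 6.45 and 6.77, and all 5 check genes were called higher at each time (also CA9, NDRG1, ANKRD37 and ADM). The basal keratins KRT5 and KRT14 were abundant in every library, whereas KLK3, a defining luminal prostate gene, had 0 counts. TP63, the basal transcription factor, stood at means of 242, 73.5, 125 and 85.7 CPM in normoxia and at 6, 12 and 24 h, against the direction of KRT5, KRT14 and ITGA6, which carry the basal sum. Summed levels of 5 basal markers were 7896 to 10691 CPM in normoxia and 11538 to 20926 in hypoxia, and those of 5 luminal markers, nearly all KRT8 and KRT18, were 228 to 259 and 620.3 to 1798. Of the other cell types, the 3 endothelial, 3 leukocyte and 3 adipocyte markers summed to less than 1 CPM in each library, and the 4 fibroblast markers to 27.9 to 60.5 CPM, nearly all COL1A1. The part of these shifts in the results below was not tested.

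Against normoxia the synthesis genes moved in both directions, with more higher than lower. Calls are those of edgeR's quasi-likelihood test at a Benjamini-Hochberg adjusted p under 0.05, with the adjustment made over the whole table. At 6 h 16 of 31 genes were called higher and 4 lower, where 25.1% and 27.7% of all tested genes were. At 12 h the counts were 16 and 6, beside 24.2% and 27.1% of all genes. At 24 h they were 16 and 7, beside 29.9% and 31.3%. The share called higher was thus 51.6% of the members at each time. The median log2 fold change of the 31 genes was 0.55, 0.43 and 0.54, beside -0.0021, -0.033 and -0.065 for all tested genes. The hypoxic libraries lay wholly apart from the normoxic ones for 21 genes on the higher side and 4 on the lower side at 6 h, for 19 and 8 at 12 h and for 17 and 10 at 24 h. Over all genes the shares without overlap were 33.6% and 36%, 34.8% and 37.6%, and 33.7% and 39.4%. The 3 comparisons share the normoxic libraries.

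13 of the 31 genes (41.9%) were called higher at all 3 times: SQLE, MSMO1, SC5D, FADS2, ACAT2, MVK, IDI1, FDFT1, NSDHL, EBP, DHCR7, ELOVL6 and INSIG2. HSD17B7, SREBF1 and STARD4 were called lower at all 3 times. Over all tested genes 14.8% were called higher and 17.9% lower at all 3 times. FADS1, PMVK, ACLY and SCAP were called at none of them. These directions are relative to the TMM scale: scaling by library size alone shifted the median of all tested genes to -0.32, -0.50 and -0.97, and then 8 members were called higher and 13 lower at 24 h. The 24 h calls of SQLE, IDI1, FDPS, FDFT1, MVD, ELOVL6 and INSIG2 were lost under that scaling, with log2 fold changes of 0.40, 0.086, 0.12, 0.37, 0.10, 0.035 and 0.22, and FADS2 stood at -0.38. Only relative levels can be read from such libraries, since less RNA per cell and fewer cells cannot be told apart.

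**Figure D1:**
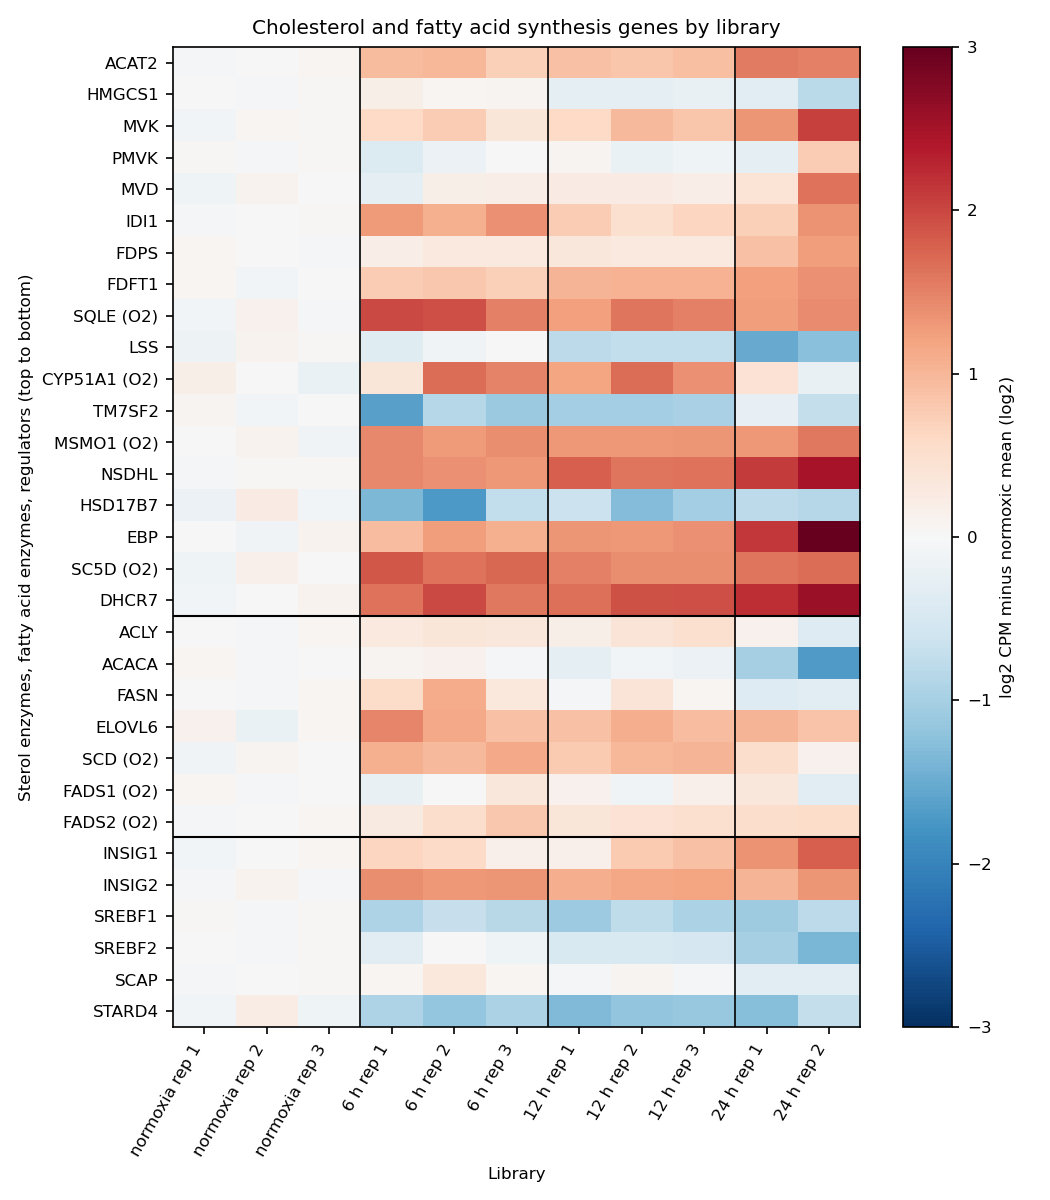
Each row is 1 of the 31 genes in pathway order and each column 1 of the 11 libraries, and colour gives the log2 CPM of a gene minus its mean in normoxia, from -3 (blue) to 3 (red), and O2 marks the 7 oxygen-consuming enzymes. DHCR7, NSDHL, SC5D and SQLE are red in all 8 hypoxic libraries, LSS turns blue from 12 h on, and the pair at 24 h differs most in EBP and MVD.

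The oxygen-consuming enzymes are SQLE, CYP51A1, MSMO1 and SC5D in the sterol branch and SCD, FADS1 and FADS2 in the fatty acid branch. Of these 7 genes, 6, 6 and 4 were called higher at 6, 12 and 24 h, and all 7 had log2 fold changes above 0 at each time. FADS1 (0.063, 0.072 and 0.048) and CYP51A1 at 24 h (0.14) were near 0 and not called. With 1 library left out, FADS1 fell as low as -0.089 at 6 h and -0.38 at 24 h, and CYP51A1 to -0.28 at 24 h. Of the 18 other enzymes, 9, 8 and 10 were called higher and 2, 3 and 4 lower. Over all tested genes 25.1%, 24.2% and 29.9% were called higher and 27.7%, 27.1% and 31.3% lower. The median log2 fold change of the oxygen-consuming enzymes was 1.29, 1.30 and 0.54, and that of the other enzymes 0.46, 0.33 and 1.00. With both branches pooled, the median was thus larger for the oxygen-consuming enzymes at 6 and 12 h and smaller at 24 h. Within each branch it was larger at 24 h too: 1.39 beside 1.11 for sterol and 0.35 beside -0.23 for fatty acid enzymes. The pooled order at 24 h is therefore not that of either branch. Library by library, the median deviation from the normoxic mean was 1.07 to 1.40 for the oxygen-consuming enzymes and 0.29 to 0.56 for the others over the 6 libraries at 6 and 12 h, with no overlap. At 24 h it was 0.54 and 0.56 for the oxygen-consuming enzymes, and 0.57 and 1.05 for the others. The size of the gap at 24 h rests on replicate 2, without which the fitted medians were 0.52 for the oxygen-consuming and 0.55 for the other enzymes. With the length and GC offset, chosen after the data were seen, the 24 h medians were 1.03 and 0.84, and scaling by library size alone turned the sign of the oxygen-consuming enzymes at 24 h (-0.38) and of the others at 12 h (-0.13). The classes hold few genes and genes are not replicates, so no test was made of the difference between them.

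The medians by oxygen use are given for each branch, with no test of the difference. Within the sterol branch, the 4 oxygen-consuming enzymes had medians of 1.56, 1.43 and 1.39 and the 14 others 0.42, 0.47 and 1.11. Within the fatty acid branch, the 3 oxygen-consuming enzymes had 0.55, 0.43 and 0.35 and the 4 others 0.51, 0.25 and -0.23. Of all 18 sterol enzymes 11, 11 and 12 were called higher and 2, 3 and 3 lower at 6, 12 and 24 h. Of the 7 fatty acid enzymes 4, 3 and 2 were called higher and 0, 0 and 1 lower. Over all tested genes 25.1%, 24.2% and 29.9% were higher and 27.7%, 27.1% and 31.3% lower. The fatty acid share called higher at 24 h, 28.6%, was near that of all genes.

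**Figure D2:**
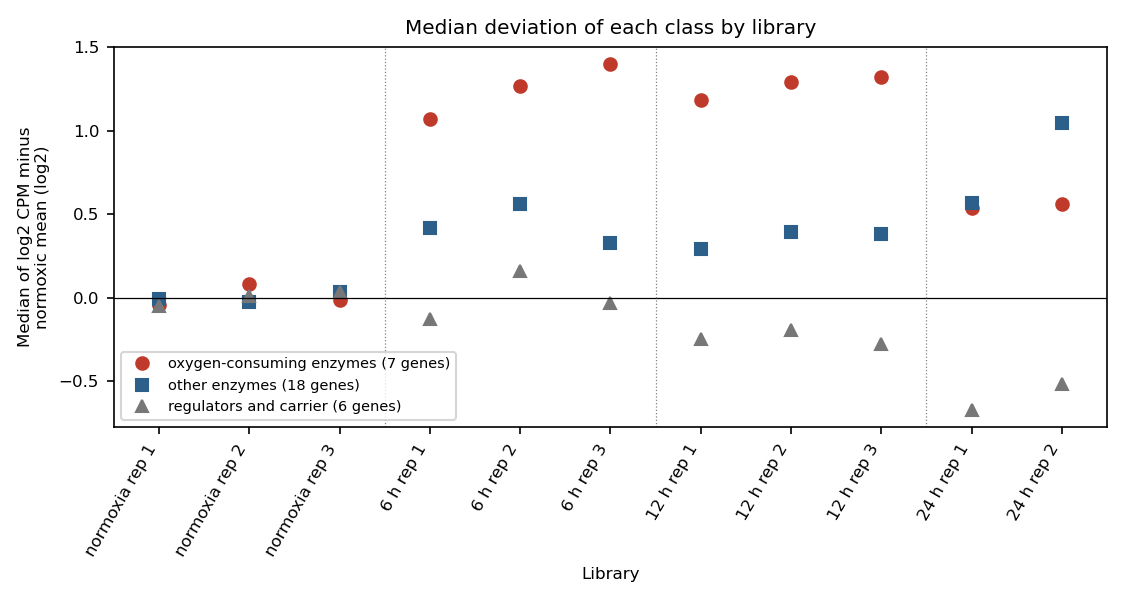
The median, over the genes of a class, of log2 CPM minus the normoxic mean (y axis, log2 units) is shown for each of the 11 libraries (x axis), with 7 oxygen-consuming enzymes, 18 other enzymes and 6 regulators and carrier. Each class pools the sterol and fatty acid branches. So pooled, the oxygen-consuming enzymes lie above the other enzymes in all 6 libraries at 6 and 12 h. In the pair at 24 h they lie below them, narrowly in replicate 1. Within each branch, which is not drawn, the oxygen-consuming enzymes had the larger median in both 24 h libraries.

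Promoter sequence is shown for 4 genes, picked as examples: MSMO1 and EBP, which rose, INSIG2, a regulator that rose from 6 h on, and SREBF2, which fell. The RefSeq table (GRCh38.p14) held 37 windows, from 250 bases before to 50 bases after a start site, for 27 of the 31 genes, and SQLE, ACAT2, FDFT1 and FASN were not matched. The letters TCACNCCAC (core of the sterol regulatory element, bound by SREBP) were found on either strand in 1 of the 27 genes, SREBF2, and in 1.13% of all 35116 windows. CCAAT, the box bound by NF-Y, was found in at least 1 window of 20 genes, and in 64.9% of the members' windows beside 34.6% of all. ACGTG, the core of the hypoxia response element, was found in 9 genes, and in 29.7% of the members' windows beside 21.4% of all. A window with CACGTG holds it on both strands. Windows of 1 gene can overlap, and a match is a description of letters and not a bound site. The stretches below, all on the plus strand and ending before the first annotated base of the gene, show these letters on either strand in capitals (CCAAT also as ATTGG, and the reverse of ACGTG is CACGT).
MSMO1, chr4:165327419-165327666: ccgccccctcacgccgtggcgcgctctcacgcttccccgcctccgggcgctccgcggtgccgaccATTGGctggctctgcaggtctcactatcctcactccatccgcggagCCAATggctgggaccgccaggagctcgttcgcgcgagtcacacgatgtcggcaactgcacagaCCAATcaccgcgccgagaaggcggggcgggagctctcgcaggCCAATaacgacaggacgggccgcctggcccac
EBP, chrX:48521558-48521798: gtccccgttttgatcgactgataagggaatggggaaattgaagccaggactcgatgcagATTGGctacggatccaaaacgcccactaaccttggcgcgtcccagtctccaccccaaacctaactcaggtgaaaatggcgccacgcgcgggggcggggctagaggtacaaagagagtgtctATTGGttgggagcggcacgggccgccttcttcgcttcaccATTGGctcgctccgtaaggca
INSIG2, chr2:118088221-118088451: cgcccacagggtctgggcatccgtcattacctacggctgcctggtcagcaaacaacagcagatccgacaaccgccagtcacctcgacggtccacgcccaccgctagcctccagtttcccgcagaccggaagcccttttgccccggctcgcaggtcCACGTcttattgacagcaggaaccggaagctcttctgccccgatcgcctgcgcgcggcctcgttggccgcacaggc
SREBF2, chr22:41832855-41833104: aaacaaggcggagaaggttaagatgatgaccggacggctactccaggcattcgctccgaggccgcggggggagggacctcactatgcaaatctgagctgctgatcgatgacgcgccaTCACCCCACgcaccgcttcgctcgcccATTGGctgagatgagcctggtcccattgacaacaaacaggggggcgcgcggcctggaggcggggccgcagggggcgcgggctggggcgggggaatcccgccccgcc
MSMO1 held 4 CCAAT boxes and EBP 3, INSIG2 held 1 ACGTG and no CCAAT, and SREBF2 held the sterol element upstream of 1 CCAAT box. Whether these letters go with the direction of change was not tested. CCAAT is given for some genes as examples, and ACGTG for all 9 genes that held it. Among genes called higher, the windows of MVK and NSDHL held 5 CCAAT boxes and those of CYP51A1 and ELOVL6 none. Among genes called lower, HSD17B7 and STARD4 held 2 and LSS and TM7SF2 1. ACGTG stood in SC5D, DHCR7, ELOVL6, INSIG1 and INSIG2, called higher at some or all times. It also stood in LSS, STARD4 and ACACA, called lower, and in SCAP, called at no time.

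SQLE, the squalene epoxidase that begins the oxygen-dependent part of the pathway (ENSG00000104549, chromosome 8, 124998497 to 125022283, plus strand, GRCh38), stood at 99.7, 116 and 102 CPM in the 3 normoxic libraries, 415, 406 and 302 at 6 h, 247, 319.8 and 302 at 12 h and 251 and 283 at 24 h. CPM are counts scaled to a common library size with TMM factors. All 8 hypoxic libraries lay above the normoxic ones, and the highest values came at 6 h. Its log2 fold changes were 1.82, 1.45 and 1.34 (SE 0.17, 0.17 and 0.18, edgeR adjusted p = 4.5e-06, 2.8e-05 and 4.7e-05). An exact two-sided permutation test on log2 CPM gave the smallest p the design allows at each time, 0.1 for 3 libraries against 3 and 0.2 for 2 against 3, as it does for any gene whose groups do not overlap.

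MSMO1, the sterol methyl oxidase (ENSG00000052802, chromosome 4, 165327667 to 165343164, plus strand), rose at each time: it stood at 65.2, 70.6 and 61.4 CPM in the 3 normoxic libraries, 178, 158 and 173 at 6 h, 161, 161 and 164 at 12 h and 162 and 195 at 24 h. The log2 fold changes were 1.37, 1.30 and 1.44 (edgeR adjusted p = 5.2e-06, 1.1e-05 and 5.0e-06). SC5D, the sterol desaturase (ENSG00000109929, chromosome 11, 121292681 to 121313410, plus strand), stood at 27.8, 34.01 and 30.4 CPM in the 3 normoxic libraries, 112, 94.7 and 101 at 6 h, 87.5, 80.6 and 80.6 at 12 h and 93.4 and 98.5 at 24 h. In SC5D the lowest hypoxic library lay well above the highest normoxic one, and the log2 fold changes were 1.74, 1.43 and 1.64 (edgeR adjusted p = 1.2e-06, 6.2e-06 and 2.4e-06).

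CYP51A1, the lanosterol demethylase (ENSG00000001630, chromosome 7, 92084987 to 92134803, minus strand), gave few reads, 67 to 638 per library. In GENCODE 68.2% of its exonic bases are shared with other genes on the same strand, and 3 pseudogenes carry its name, so its values are uncertain. Of these same-strand genes, 1 had at most 1 count in any library and the other is not in the count table. It stood at 4.83, 4.29 and 3.68 CPM in the 3 normoxic libraries, 5.47, 13.7 and 12.1 at 6 h, 9.71, 13.6 and 11.1 at 12 h and 5.73 and 3.65 at 24 h. It was called higher at 6 and 12 h, with log2 fold changes of 1.29 and 1.43, and not at 24 h, with 0.14 (edgeR adjusted p = 0.00314, 0.00187 and 0.731). From 12 to 24 h the log2 fold change was -1.28 (edgeR adjusted p = 0.0181), a call lost without 24 h replicate 2 (-1.01) or 12 h replicate 2 (-1.15).

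**Figure D3:**
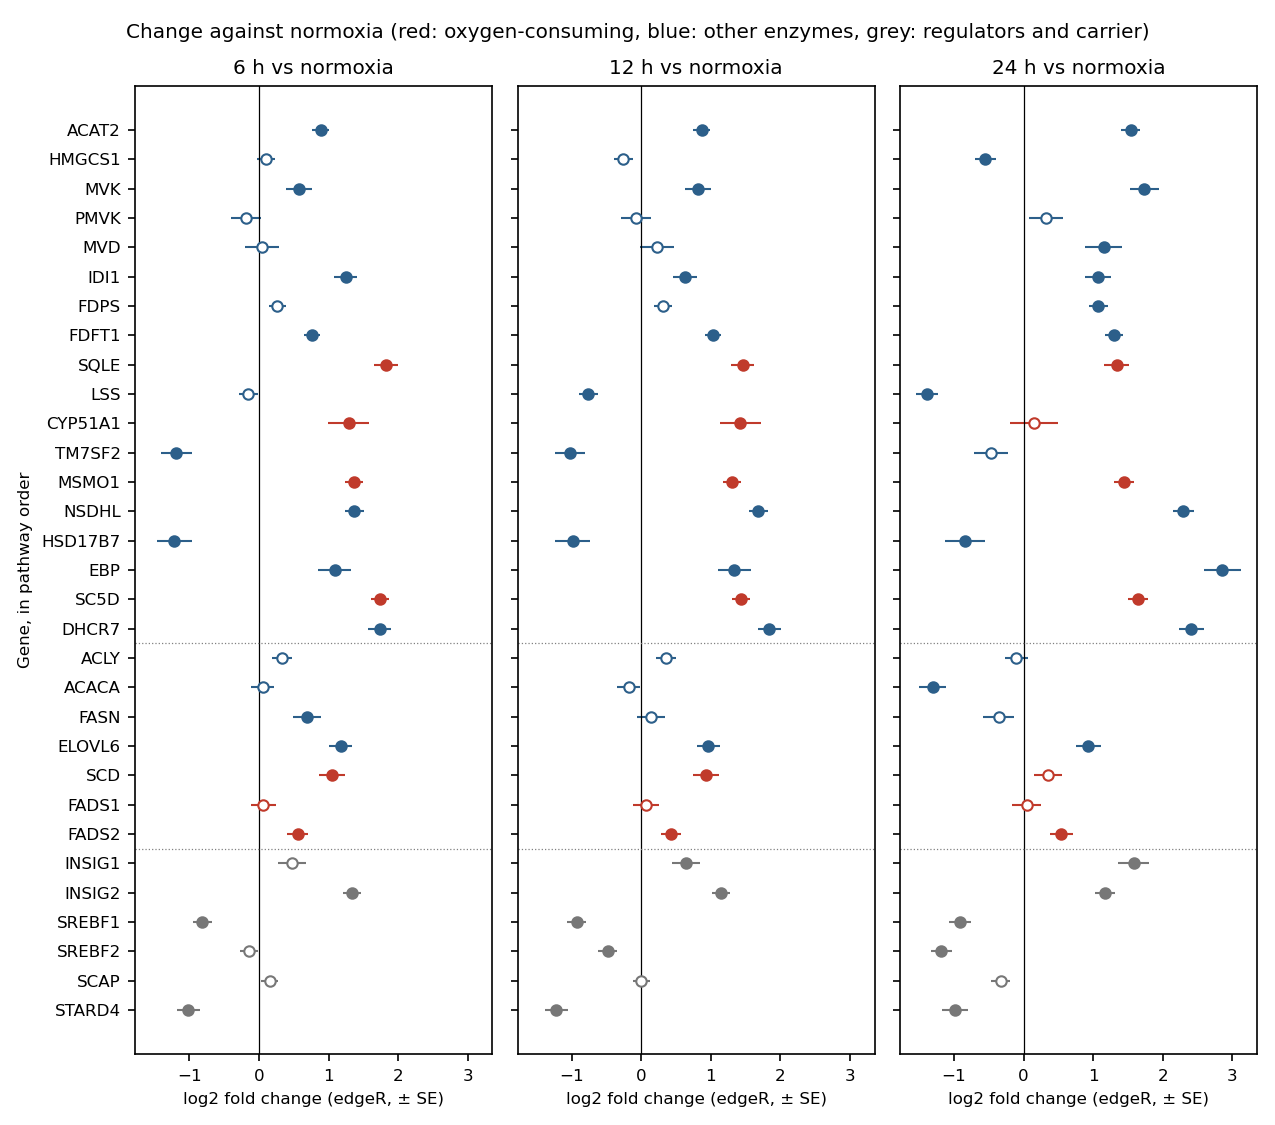
Points give the log2 fold change against normoxia (x axis) of the 31 genes (y axis, pathway order) at 6, 12 and 24 h, bars the standard error of edgeR's fit, and filled points the genes called at an adjusted p under 0.05. LSS, TM7SF2 and HSD17B7 lie left of 0 among sterol enzymes that lie mostly to the right, and EBP, DHCR7 and NSDHL are farthest to the right at 24 h.

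The enzymes that turn lanosterol into cholesterol without oxygen split into genes that rose and genes that fell. DHCR7, a reductase of the last part of the pathway (ENSG00000172893, chromosome 11, 71428193 to 71452868, minus strand), stood at 59.8, 62.7 and 68.2 CPM in the 3 normoxic libraries, 195, 250.4 and 189 at 6 h, 201, 239.7 and 242 at 12 h and 296 and 381 at 24 h. No hypoxic library overlapped with normoxia, and the log2 fold changes were 1.73, 1.84 and 2.41 (SE 0.16, 0.16 and 0.18, edgeR adjusted p = 5.2e-06, 5.8e-06 and 1.1e-06). NSDHL, a dehydrogenase that removes methyl carbons from the sterol (ENSG00000147383, chromosome X, 152830967 to 152869729, plus strand), stood at 18.6, 20.02 and 19.9 CPM in the 3 normoxic libraries, 53.2, 50.2 and 48.03 at 6 h, 67.7, 59.7 and 60.3 at 12 h and 84.03 and 108 at 24 h. Its groups were in the order of time without overlap, with log2 fold changes of 1.37, 1.68 and 2.30 (edgeR adjusted p = 6.7e-06, 3.0e-06 and 4.6e-07).

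EBP, the sterol isomerase (ENSG00000147155, chromosome X, 48521799 to 48528716, plus strand), had the highest log2 fold change of the group at 24 h. It stood at 21.1, 19.3 and 22.5 CPM in the 3 normoxic libraries, 39.98, 50.1 and 43.6 at 6 h, 52.6, 52.1 and 54.1 at 12 h and 91.05 and 213 at 24 h. Its 24 h libraries differed by more than a factor of 1.5 and both lay above all others. The log2 fold changes were 1.09, 1.33 and 2.86 (edgeR adjusted p = 0.00215, 0.00064 and 3.8e-06), and at 24 h 2.10 without replicate 2. Of its exonic bases 36.4% are shared with a gene model on the same strand, which had at most 5 counts in any library.

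LSS, which closes oxidized squalene into lanosterol and so directly follows SQLE (ENSG00000160285, chromosome 21, 46188141 to 46228824, minus strand), went the other way. It stood at 156, 184 and 178 CPM in the 3 normoxic libraries, 135, 160.5 and 170.3 at 6 h, 99.7, 103 and 103 at 12 h and 60.8 and 71.6 at 24 h. The 6 h libraries overlapped with normoxia, whereas those at 12 and 24 h lay below it, and those at 24 h below those at 12 h. The log2 fold changes were -0.15, -0.76 and -1.38 (SE 0.13, 0.14 and 0.16, edgeR adjusted p = 0.353, 0.00064 and 1.6e-05). LSS was the only member called between 12 h and 6 h, with -0.61 (edgeR adjusted p = 0.0278; 0.000271 to 0.123 over the alternatives), and leaving out any 1 normoxic or 12 h library, or 6 h replicate 2 or 3, took that call away (log2 fold changes -0.62 to -0.53).

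HSD17B7, the keto-reductase that works with MSMO1 and NSDHL in removing sterol methyl groups (ENSG00000132196, chromosome 1, 162790702 to 162812823, plus strand), stood at 9.22, 12.4 and 9.81 CPM in the 3 normoxic libraries, 4.07, 3.11 and 6.24 at 6 h, 6.60, 4.21 and 5.09 at 12 h and 5.99 and 5.72 at 24 h. All hypoxic libraries were below normoxia, with log2 fold changes of -1.22, -0.99 and -0.84 (edgeR adjusted p = 0.0015, 0.00595 and 0.0236), and 2 pseudogenes carry its name. At 24 h the call was lost without normoxia replicate 2 (log2 fold change -0.71) and without 24 h replicate 2 (-0.83), with adjusted p from 0.00065 to 0.298 over the alternatives. TM7SF2, a sterol reductase (ENSG00000149809, chromosome 11, 65111845 to 65116384, plus strand), had 43 to 214 reads per library and stood at 4.95, 4.40 and 4.64 CPM in the 3 normoxic libraries, 1.47, 2.53 and 2.12 at 6 h, 2.27, 2.28 and 2.33 at 12 h and 3.89 and 2.83 at 24 h. It was lower at 6 and 12 h, with -1.19 and -1.02, and at 24 h its -0.46 was not called (edgeR adjusted p = 0.000695, 0.00208 and 0.121). Without 24 h replicate 1 it was called, with -0.77.

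Of the mevalonate enzymes, ACAT2 and MVK were called at each time, HMGCS1 and MVD at 24 h alone and PMVK at none. ACAT2, which joins the first acetyl-CoA units (ENSG00000120437, chromosome 6, 159762045 to 159779112, plus strand), stood at 28.6, 30.1 and 31.3 CPM in the 3 normoxic libraries, 58.2, 59.7 and 48.9 at 6 h, 55.3, 53.04 and 56.3 at 12 h and 89.00 and 85.3 at 24 h. It was called higher at each time, with log2 fold changes of 0.89, 0.87 and 1.54 (edgeR adjusted p = 7.9e-05, 0.000121 and 2.7e-06), and 22.2% of its exonic bases overlap genes on the other strand, TCP1 among them. HMGCS1, which makes HMG-CoA (ENSG00000112972, chromosome 5, 43287470 to 43313512, minus strand), stood at 49.6, 49.2 and 51.6 CPM in the 3 normoxic libraries, 56.3, 51.8 and 53.5 at 6 h, 41.6, 41.5 and 42.8 at 12 h and 39.8 and 28.7 at 24 h. It was not called at 6 or 12 h and was lower at 24 h, with 0.10, -0.26 and -0.55 (edgeR adjusted p = 0.533, 0.124 and 0.00764). HMGCS1 at 12 h lay below normoxia in all 3 libraries, and was called without either 24 h library (-0.28 and -0.26). In GENCODE 37.7% of the exonic bases of HMGCS1 overlap a gene on the other strand, which had 0 counts in every library.

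MVK, the mevalonate kinase (ENSG00000110921, chromosome 12, 109573255 to 109598125, plus strand), stood at 21.8, 24.1 and 23.7 CPM in the 3 normoxic libraries, 35.02, 39.2 and 29.8 at 6 h, 34.9, 45.9 and 41.5 at 12 h and 58.3 and 96.6 at 24 h. Its log2 fold changes were 0.58, 0.81 and 1.74 (edgeR adjusted p = 0.02, 0.00333 and 1.9e-05), and the 6 h call was lost without normoxia replicate 1, normoxia replicate 3 or 6 h replicate 2 (log2 fold changes 0.53, 0.59 and 0.48; adjusted p 0.000214 to 0.224 over the alternatives). PMVK, the phosphomevalonate kinase (ENSG00000163344, chromosome 1, 154924740 to 154936719, minus strand), was called at no time, and its 24 h libraries stood at 14.8 and 30.4 CPM on either side of the normoxic 18.4, 17.2 and 18.4 CPM. Without 24 h replicate 1 its log2 fold change at 24 h was 0.70, a call, and without replicate 2 it was -0.31. MVD, the mevalonate diphosphate decarboxylase (ENSG00000167508, chromosome 16, 88651935 to 88663161, minus strand), was called at 24 h alone (log2 fold change 1.15, edgeR adjusted p = 0.00263; 2.6e-06 to 0.673 over the alternatives). Its 24 h libraries stood at 43.6 and 102 CPM beside 29.9, 35.02 and 32.97 in normoxia, and without replicate 2 the log2 fold change was 0.40 and the call was lost.

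Of the enzymes that build farnesyl diphosphate and squalene, IDI1, the isopentenyl diphosphate isomerase (ENSG00000067064, chromosome 10, 1039152 to 1049119, minus strand), stood at 51.6, 52.3 and 53.6 CPM in the 3 normoxic libraries, 127, 109 and 137 at 6 h, 88.9, 72.7 and 82.01 at 12 h and 86.1 and 135 at 24 h. It was higher at each time, with log2 fold changes of 1.25, 0.63 and 1.07 (edgeR adjusted p = 7.0e-05, 0.00744 and 0.000296). FDPS, the farnesyl diphosphate synthase (ENSG00000160752, chromosome 1, 155308748 to 155320666, plus strand), stood at 43.2, 40.9 and 40.2 CPM in the 3 normoxic libraries, 47.6, 50.9 and 50.6 at 6 h, 52.6, 51.1 and 50.6 at 12 h and 76.4 and 98.4 at 24 h. All hypoxic libraries of FDPS were above normoxia, but only the 24 h difference was called, with 0.26, 0.31 and 1.08 (edgeR adjusted p = 0.0938, 0.0523 and 3.3e-05), and 8 pseudogenes carry its name. Without either 24 h library FDPS was called at 6 and 12 h too, with 0.24 and 0.28 without replicate 1. FDFT1, the squalene synthase (ENSG00000079459, chromosome 8, 11795573 to 11839395, plus strand), stood at 73.3, 66.1 and 70.7 CPM in the 3 normoxic libraries, 118, 122 and 116 at 6 h, 143, 144 and 145 at 12 h and 163 and 182 at 24 h. Its replicates were close, its groups did not overlap with normoxia, and it rose by 0.76, 1.04 and 1.30 on the log2 scale (edgeR adjusted p = 0.000164, 2.4e-05 and 5.1e-06).

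**Figure D4:**
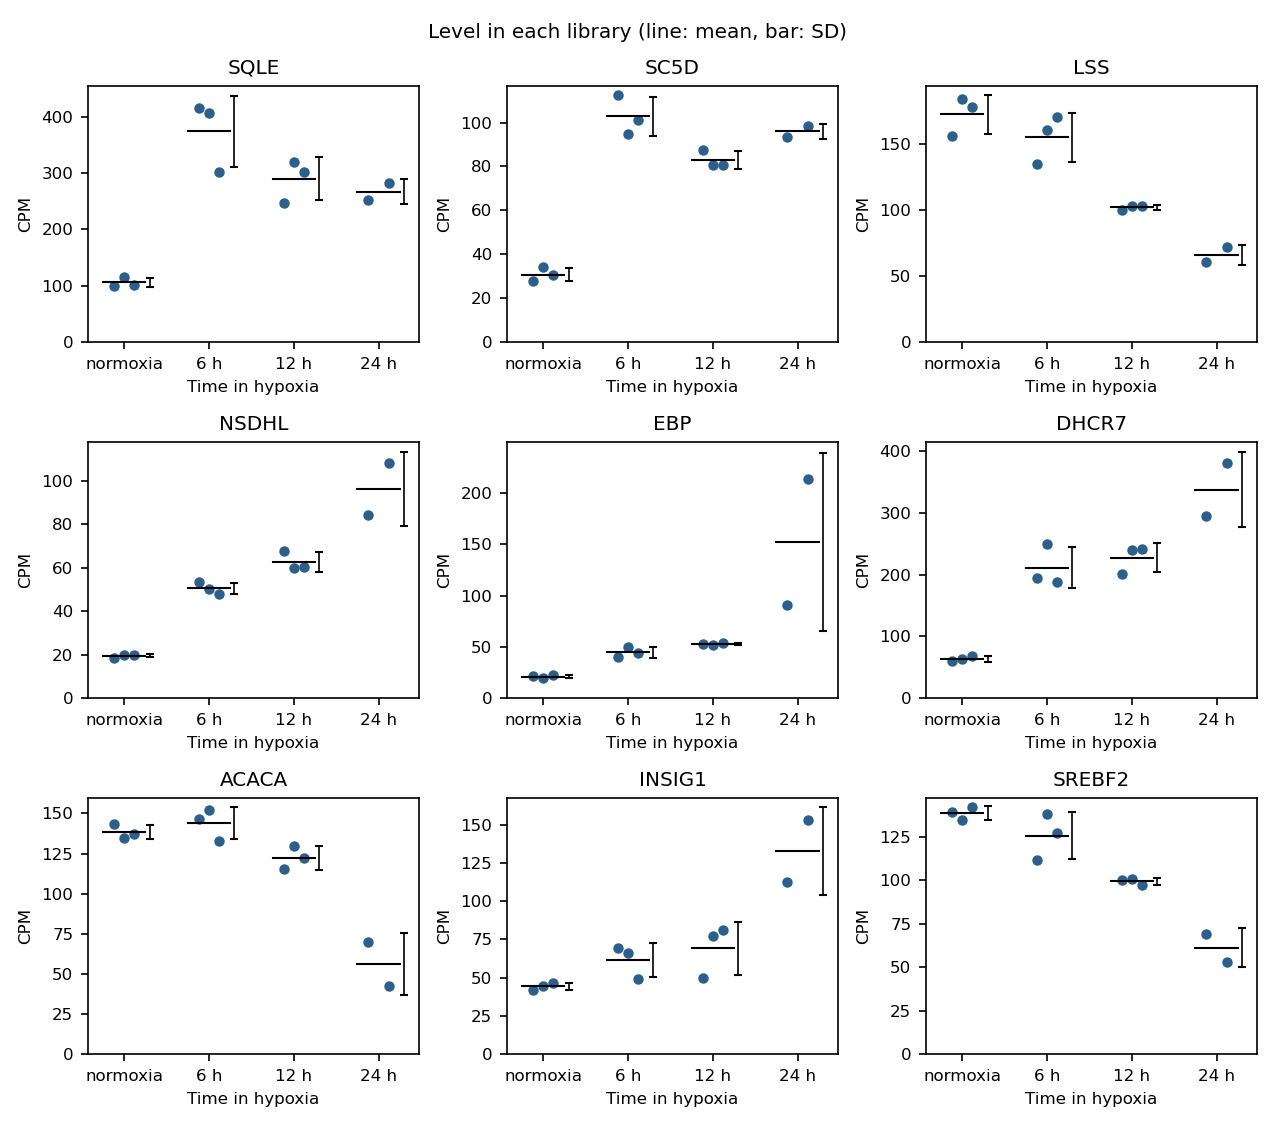
CPM (y axis, from 0) of 9 genes in each of the 11 libraries by time in hypoxia (x axis), with the mean as a line and the SD as a bar (n = 3, 3, 3 and 2). NSDHL, EBP and DHCR7 are highest at 24 h, LSS, ACACA and SREBF2 lowest at 24 h, and SQLE is highest at 6 h.

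In the fatty acid branch 4, 3 and 2 of the 7 enzymes were higher at 6, 12 and 24 h, beside 25.1%, 24.2% and 29.9% of all tested genes. SCD, the stearoyl-CoA desaturase that makes monounsaturated fatty acids with oxygen (ENSG00000099194, chromosome 10, 100347233 to 100364826, plus strand), had the highest level of the group per exonic length, a mean of 378 CPM per kilobase in normoxia beside 45.6 for FASN, the next. It stood at 1844, 2097 and 2007 CPM in the 3 normoxic libraries, 4158, 3863 and 4333 at 6 h, 3402, 3959 and 4012 at 12 h and 2873 and 2171 at 24 h. SCD was called higher at 6 and 12 h, with log2 fold changes of 1.05 and 0.94, and not at 24 h, with 0.35 (edgeR adjusted p = 0.000474, 0.00125 and 0.155). Without 24 h replicate 2 the 24 h value was 0.52 and was called. SCD fell from 6 to 24 h by 0.71 on the log2 scale (edgeR adjusted p = 0.0166).

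FADS1 and FADS2 are the desaturases of polyunsaturated fatty acids. As annotated, FADS1 lies within the span of FADS2 on chromosome 11, on the other strand, and they share under 5% of their exonic bases. FADS1 (ENSG00000149485, chromosome 11, 61799627 to 61829318, minus strand) stood at 28.2, 25.8 and 26.95 CPM in the 3 normoxic libraries, 23.2, 27.4 and 33.9 at 6 h, 29.7, 25.2 and 30.2 at 12 h and 34.2 and 21.5 at 24 h. Its hypoxic libraries lay on both sides of normoxia, and its log2 fold changes of 0.063, 0.072 and 0.048 were not called. FADS2 (ENSG00000134824, chromosome 11, 61792980 to 61867354, plus strand) stood at 15.3, 15.7 and 16.3 CPM in the 3 normoxic libraries, 18.9, 22.9 and 27.5 at 6 h, 20.2, 21.3 and 21.95 at 12 h and 22.6 and 23.2 at 24 h. No hypoxic library of FADS2 overlapped with normoxia, and it was called at each time with 0.55, 0.43 and 0.54 (edgeR adjusted p = 0.00695, 0.0283 and 0.0123), but at 12 h the call was lost without any 1 normoxic library and without 12 h replicate 2 or 3 (log2 fold changes 0.39 to 0.46 with 1 library left out). Scaling by library size alone turned FADS2 to -0.042 at 12 h and -0.38 at 24 h.

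ACLY, which supplies cytosolic acetyl-CoA (ENSG00000131473, chromosome 17, 41866917 to 41930542, minus strand), stood at 130.0, 125 and 134 CPM in the 3 normoxic libraries, 159, 167 and 163 at 6 h, 147, 171 and 179.7 at 12 h and 142 and 99.2 at 24 h. It was not called against normoxia, with 0.33, 0.35 and -0.10, but single libraries decided this: it was called higher at 12 h without 12 h replicate 1 (0.44), higher at 6 and 12 h without either 24 h library (0.31 to 0.35), and lower at 24 h without 24 h replicate 1 (-0.44). ACACA, the acetyl-CoA carboxylase that commits carbon to fatty acids (ENSG00000278540, chromosome 17, 37084992 to 37406836, minus strand), stood at 143, 135 and 137 CPM in the 3 normoxic libraries, 147, 152 and 133 at 6 h, 115, 130.0 and 122 at 12 h and 69.7 and 42.3 at 24 h. It was near its normoxic level at 6 and 12 h and clearly below it in both libraries at 24 h, with log2 fold changes of 0.055, -0.18 and -1.31 (edgeR adjusted p = 0.794, 0.385 and 9.9e-05). FASN, the fatty acid synthase (ENSG00000169710, chromosome 17, 82078338 to 82098294, minus strand), stood at 426, 406 and 443 CPM in the 3 normoxic libraries, 618, 917 and 530.3 at 6 h, 407, 556 and 441 at 12 h and 327 and 336 at 24 h. It was called higher at 6 h, with 0.70 (edgeR adjusted p = 0.0112; 0.000233 to 0.202 over the alternatives), a call lost without 6 h replicate 2, its highest library (0.44). At 12 and 24 h its 0.14 and -0.36 were not called. ELOVL6, which elongates the product of FASN (ENSG00000170522, chromosome 4, 110045846 to 110199199, minus strand), stood at 24.01, 19.1 and 22.8 CPM in the 3 normoxic libraries, 60.7, 48.03 and 40.3 at 6 h, 40.5, 46.8 and 41.3 at 12 h and 44.3 and 39.4 at 24 h. It was higher at each time, with 1.18, 0.96 and 0.93 (edgeR adjusted p = 8.9e-05, 0.000459 and 0.000736).

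Among the regulators, both genes of the SREBP factors were lower at 24 h and both INSIG genes were higher. SREBF1 (ENSG00000072310, chromosome 17, 17810399 to 17837002, minus strand), which encodes the SREBP most tied to fatty acid genes, stood at 233, 218 and 235 CPM in the 3 normoxic libraries, 120.2, 142 and 129 at 6 h, 108, 134 and 118 at 12 h and 109 and 134 at 24 h. It was lower at each time, with log2 fold changes of -0.81, -0.93 and -0.92 (edgeR adjusted p = 0.000381, 0.000191 and 0.000326). SREBF2 (ENSG00000198911, chromosome 22, 41833105 to 41907306, plus strand), which encodes the SREBP most tied to sterol genes, stood at 139, 134 and 142 CPM in the 3 normoxic libraries, 111, 138 and 127 at 6 h, 100.3, 101 and 97.2 at 12 h and 69.3 and 53.2 at 24 h. The 6 h libraries overlapped with normoxia and the later ones did not, with -0.14, -0.48 and -1.18 (edgeR adjusted p = 0.389, 0.0105 and 4.6e-05).

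INSIG2 (ENSG00000125629, chromosome 2, 118088452 to 118110997, plus strand) was higher from 6 h on: it stood at 18.2, 20.3 and 18.5 CPM in the 3 normoxic libraries, 49.7, 46.6 and 47.9 at 6 h, 40.2, 42.7 and 43.5 at 12 h and 38.3 and 47.2 at 24 h, with log2 fold changes of 1.34, 1.15 and 1.17 (edgeR adjusted p = 5.6e-06, 2.2e-05 and 1.9e-05). INSIG1 (ENSG00000186480, chromosome 7, 155297776 to 155310235, plus strand) had its highest values at 24 h: it stood at 41.9, 44.6 and 46.5 CPM in the 3 normoxic libraries, 69.4, 65.7 and 48.96 at 6 h, 49.5, 76.99 and 81.3 at 12 h and 112 and 153 at 24 h, with 0.47, 0.64 and 1.58 (edgeR adjusted p = 0.0664, 0.0178 and 6.6e-05). At 6 h it was called without 6 h replicate 3 (0.61), 12 h replicate 1 (0.47) or either 24 h library (0.44 and 0.45). The 12 h call of INSIG1 was lost without normoxia replicate 1 or 2 and without 12 h replicate 2 or 3 (log2 fold changes 0.51 to 0.84 with 1 library left out). Between 6 and 24 h INSIG1 differed by 1.11 (edgeR adjusted p = 0.00184) and INSIG2 by -0.17 (edgeR adjusted p = 0.355), and the difference between these 2 changes was not tested. SCAP, the SREBP escort (ENSG00000114650, chromosome 3, 47413681 to 47477126, minus strand), stood at 37.1, 38.1 and 38.7 CPM in the 3 normoxic libraries, 39.7, 47.6 and 39.6 at 6 h, 37.3, 39.9 and 36.98 at 12 h and 29.99 and 30.5 at 24 h. It was not called against normoxia, with 0.16, 0.0034 and -0.33, though at 24 h it was without 6 h replicate 2 (-0.33), 12 h replicate 2 (-0.37) or 24 h replicate 1 (-0.37). STARD4, a carrier of cholesterol between membranes (ENSG00000164211, chromosome 5, 111496033 to 111512590, minus strand), stood at 75.6, 94.2 and 73.3 CPM in the 3 normoxic libraries, 42.2, 36.00 and 42.02 at 6 h, 32.4, 35.4 and 36.4 at 12 h and 33.3 and 48.9 at 24 h. All its hypoxic libraries were below normoxia, with -1.02, -1.22 and -0.98 (edgeR adjusted p = 0.000247, 8.9e-05 and 0.000661).

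Between the hypoxic times, edgeR with all libraries called fewer members from 6 to 12 h than from 12 to 24 h. This order depended on the fit, as given below. From 6 to 12 h 0 of 31 genes were called higher and 1 lower (LSS), beside 1.88% and 3.07% of all tested genes. Without 24 h replicate 1 edgeR called 2 higher and 5 lower, and without 24 h replicate 2 it called 2 and 4. Over the whole table these fits called 3621 of 20850 and 3649 of 20931 genes, beside 376 higher and 613 lower of 19981 with all libraries. limma-voom called 0 higher and 1 lower, DESeq2 0 and 3, and limma-voom with quality weights 1 and 7. From 12 to 24 h the fit with quality weights called 2 and 1. Over all genes that fit called 4489 from 6 to 12 h and 1093 from 12 to 24 h. edgeR fitted to the 6 and 12 h libraries alone called 3 lower. At an unadjusted p under 0.05 edgeR with all libraries had 2 members higher, FDFT1 and NSDHL. Lower at that threshold were SQLE, SC5D, HMGCS1, IDI1, LSS, FASN and SREBF2. From 12 to 24 h 8 were higher (ACAT2, MVK, MVD, FDPS, NSDHL, EBP, DHCR7 and INSIG1) and 4 lower (CYP51A1, LSS, ACACA and SREBF2), beside 15.1% and 13.3%. From 6 to 24 h 10 were higher and 9 lower, beside 22.1% and 20.3%. The 2 libraries at 24 h carry the later counts: from 12 to 24 h 4 genes were higher and 3 lower without replicate 2, and 12 and 7 without replicate 1. Without replicate 2 the calls of MVK (0.50), MVD (0.18), DHCR7 (0.36), INSIG1 (0.68) and CYP51A1 (-1.01) were lost, and EBP stood at 0.77. The calls of MVD and DHCR7 were also lost without 12 h replicate 2 or 3, and that of DHCR7 without 12 h replicate 1. From 6 to 24 h, SQLE (-0.49) and TM7SF2 (0.72) each lost its call without any 1 normoxic library and without 24 h replicate 1, among others, MVD lost it without 24 h replicate 2 (0.36) and CYP51A1 without 24 h replicate 2 (-0.87) or 6 h replicate 2 or 3. With only the 12 and 24 h libraries in the fit, 0 of 17807 genes were called, members or not, with 12 of the 31 members and 5671 of all genes at an unadjusted p under 0.05.

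The 24 h libraries differed from each other by more than 1.5-fold in 8 of the 31 genes, with EBP, MVD, PMVK, MVK and IDI1 higher in replicate 2 and ACACA, FADS1 and CYP51A1 higher in replicate 1. The changes between hypoxic times went along with transcript length. From 12 to 24 h, over the 31 genes, Spearman's rho between the log2 fold change and the length of the longest transcript was -0.705, and over 19884 tested genes with a length it was -0.360. From 6 to 12 h and from 6 to 24 h it was -0.682 and -0.726 in the members and -0.0877 and -0.333 in all genes. Against normoxia it was -0.110, -0.280 and -0.538 at 6, 12 and 24 h in the members and -0.0571, -0.0888 and -0.265 in all genes. With GC content the members had -0.387, -0.304 and -0.145 against normoxia and 0.0927 from 12 to 24 h, and all genes -0.0232, 0.0184 and -0.00917 and -0.0462. The genes share these libraries, so the values are descriptions. An offset for length and GC content, chosen after the data were seen, took away the 12 to 24 h calls of ACAT2 (0.23), LSS (-0.22), NSDHL (0.28) and SREBF2 (-0.20) and moved EBP to 0.83 and ACACA to -0.40, both still called. From 6 to 24 h it took away the calls of FASN (-0.10), SCD (-0.39), ACAT2 (0.18), TM7SF2 (0.46) and SCAP (-0.17) and moved EBP to 0.93 and ACACA to -0.58. The same offset left EBP at 1.80 and ACACA at -0.55 at 24 h against normoxia, both still called, and moved ACAT2 to 0.92, FADS2 to 1.17, SREBF1 to -0.27 and SREBF2 to -0.49, all still called in their directions. It turned FASN at 24 h from -0.36 to 0.78 and PMVK from 0.32 to -0.79, both then called (adjusted p 0.00106 to 0.413 and 0.000239 to 0.679 over the alternatives).

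**Figure D5:**
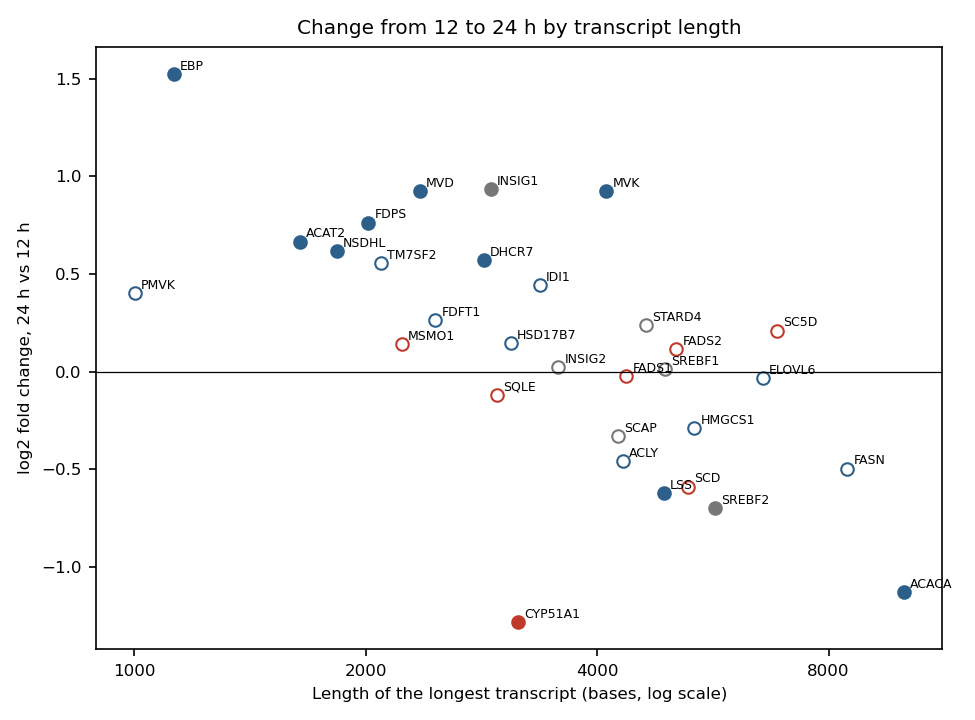
Log2 fold change from 12 to 24 h (y axis) against the length of the longest annotated transcript (x axis, bases, log scale) for the 31 genes. Red points are oxygen-consuming enzymes, blue other enzymes, grey regulators and carrier, and filled points are called. Short transcripts such as EBP lie above 0 and long ones such as ACACA below, with CYP51A1 far below its neighbours in length (rho = -0.705).

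Further genes of these pathways were taken from 4 lists. Of 13 other sterol and isoprenoid genes, 4, 4 and 5 were called higher and 2, 3 and 2 lower at 6, 12 and 24 h, with medians of 0.081, 0.13 and 0.44 on the log2 scale. Called in 1 direction at all times were ERG28, which tethers the sterol demethylation enzymes, with log2 fold changes of 0.76, 0.75 and 0.64, TMEM97, a sterol-responsive membrane protein, with 0.65, 0.85 and 1.12, and DHDDS, a subunit of the dolichol-making prenyltransferase, with -1.09, -0.84 and -1.18. Of 12 genes of SREBP processing and sterol sensing, 4, 3 and 5 were higher and 3, 5 and 6 lower, with medians of -0.012, -0.094 and -0.41. MBTPS1 and MBTPS2, the proteases that release SREBP from the Golgi membrane, were lower at each time, with -0.46, -0.60 and -1.03 for MBTPS1 and -1.64, -1.43 and -1.91 for MBTPS2, as was ERLIN2, a membrane protein of sterol-linked protein degradation, with -1.10, -1.39 and -2.18. PGRMC1, a heme-binding partner of sterol enzymes, was higher with 1.16, 0.73 and 1.37, as was the AAA ATPase VCP with 0.78, 0.58 and 0.78.

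Of 24 other genes of fatty acid synthesis, elongation and activation, 23 were tested, and 7, 5 and 11 were higher and 4, 4 and 3 lower, with medians of 0.14, 0.17 and 0.37. The largest falls called at all times were in ACACB, the mitochondrial acetyl-CoA carboxylase, with -2.07, -1.90 and -2.85, and MLYCD, the malonyl-CoA decarboxylase, with -2.06, -1.30 and -1.39. ELOVL7, an elongase, had -0.43, -0.83 and -0.93. TECR and HACD3, which complete each round of elongation, were higher, with 0.50, 1.05 and 1.66 for TECR and 0.88, 0.82 and 1.21 for HACD3, as was the elongase ELOVL4 with 1.40, 0.99 and 1.15. Of 13 genes of sterol export, esterification and trafficking, 12 were tested, and 4, 3 and 3 were higher and 2, 2 and 5 lower, with medians of 0.00092, -0.083 and -0.34. SOAT1, which esterifies cholesterol for storage, was higher with 1.10, 0.86 and 0.69, the lysosomal sterol carrier NPC2 with 0.54, 0.96 and 1.92 and the lipoprotein receptor SCARB1 with 0.36, 0.46 and 0.56. ABCA1, the cholesterol exporter, was lower with -1.16, -1.34 and -1.19. The 4 lists were chosen with results known, and nothing is read from their counts beyond the shares of all tested genes given above.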

How the data were processed

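RNA-seq of RWPE1 cells was analysed in 11 libraries, built in 1 batch with a stranded kit and read from single ends. The authors trimmed the reads with Trimmomatic, aligned them with STAR to GRCh38 and assigned them to Ensembl genes with featureCounts; the deposited values are these raw counts, neither filtered nor normalized. The submitters' processing notes also name FastQC, DESeq2 and hg38. The strand setting and the handling of reads with several matches are not given in the sources used here, so genes that overlap, and genes with near-identical copies, are uncertain.

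Library sizes were scaled with TMM over the genes kept by filterByExpr (minimum count 10, minimum total 15). All 11 libraries were fitted in edgeR (glmQLFit, glmQLFTest) with a mean per time point, with Benjamini-Hochberg adjustment across the 19981 genes kept, separately in each of 6 comparisons. SE stands for the size of the log2 fold change over the square root of F. CPM uses TMM-scaled sizes, and log2 CPM a prior count of 2. The count model replaced limma-voom, the study's test, which is an alternative here. The members and lists were chosen with earlier results of these data known. All members are named, and from each further list up to 3 genes with the highest and 3 with the lowest mean change among those called in 1 direction at all 3 times. Of these, 1 gene is not reported here.

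Alternatives exchanged the test, the scaling, the filter, the libraries fitted and the replicate block, and left out each library in turn. An offset for transcript length and GC content (loess, span 0.5) was added after the data were seen. Same-numbered libraries of different times had correlations of deviations from -0.16 to 0.21, other pairs from -0.27 to 0.28. Deviations from the mean of so few libraries cancel out within a group, so these values cannot decide whether the replicate numbers pair the samples. Replicates differed by more than counting noise (chi-square per degree of freedom 3.20 to 287). Between 27496009 and 49488345 reads were counted per library; counts of single genes are given where they limit precision. Positions are from GENCODE release 44 (GRCh38). The tools were edgeR 4.0.16, DESeq2 1.42.0 and limma 3.58.1 in R 4.3.3, and matplotlib 3.10.9 in Python 3.11.15.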

Additional observations from a re-analysis of the deposited data

Results flagged for a closer look

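Effects against normoxia that differed between 2 times, by edgeR's direct test of one hypoxic time against the other, are given here as log2 fold changes. No group had the 4 libraries needed to look for outlying samples. At 24 h against 6 h the effect was higher in EBP (1.77), MVK (1.16), INSIG1 (1.11), MVD (1.10), NSDHL (0.93), FDPS (0.81), TM7SF2 (0.72), DHCR7 (0.68), ACAT2 (0.65) and FDFT1 (0.54), and lower in ACACA (-1.36), LSS (-1.23), CYP51A1 (-1.14), FASN (-1.05), SREBF2 (-1.04), SCD (-0.71), HMGCS1 (-0.65), SQLE (-0.49) and SCAP (-0.48). At 24 h against 12 h it was higher in EBP (1.52), INSIG1 (0.94), MVD (0.93), MVK (0.92), FDPS (0.76), ACAT2 (0.67), NSDHL (0.62) and DHCR7 (0.57), and lower in CYP51A1 (-1.28), ACACA (-1.13), SREBF2 (-0.70) and LSS (-0.62). At 12 h against 6 h it was lower in LSS (-0.61). The 24 h values rest on 2 libraries that stand apart from each other, and the part of this in the differences was not tested. With the offset for length and GC content the 24 h against 6 h calls of FASN (-0.10), SCD (-0.39), ACAT2 (0.18), TM7SF2 (0.46) and SCAP (-0.17) were lost, and ACACA stood at -0.58. At 24 h against 12 h it took away those of ACAT2 (0.23), LSS (-0.22), NSDHL (0.28) and SREBF2 (-0.20).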

How the results depend on the processing

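Over the 31 genes, 6 comparisons and 21 alternatives, 3615 of 3906 values stayed on their side of the threshold, 151 lost a call and 127 gained one in the same direction. A change of sign between 2 uncalled values (130 values) was not counted as a reversal. Reversals with a call came from library size alone (8 values) and the length and GC offset (5); the cause was not tested beyond the shift of all genes under library size alone.

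With library size alone, the reversed log2 fold changes were FADS2 -0.042 and SCAP -0.46 at 12 h against normoxia, FADS1 -0.80, FADS2 -0.38 and PMVK -0.70 at 24 h against normoxia, and MSMO1 -0.55, FDFT1 -0.069 and STARD4 -0.62 at 24 h against 6 h. The members called were then 9 higher at 12 h, 8 higher and 13 lower at 24 h, 2 lower at 12 h against 6 h, 1 higher and 8 lower at 24 h against 12 h, and 2 and 18 at 24 h against 6 h. The medians were 0.97, 0.83 and -0.38 for the oxygen-consuming and 0.13, -0.13 and 0.061 for the other enzymes.

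The length and GC offset reversed PMVK (-0.79) and FASN (0.78) at 24 h against normoxia, and FADS2 (0.46), PMVK (-0.40) and SREBF1 (0.35) at 24 h against 6 h. It gave medians of 0.54 and 0.43 for the other enzymes at 6 and 12 h and 1.03 for the oxygen-consuming ones at 24 h, with 2 members lower at 12 h against 6 h and 2 lower at 24 h against 12 h. Keeping genes with 10 or more counts in every library gave medians of 0.37 and 0.23 for the other enzymes and 1.20 and 0.39 for the oxygen-consuming ones at 12 and 24 h; this filter and no filter gave 2 and 2 lower at 12 h against 6 h and 7 and 7 at 24 h against 12 h, and no filter a median of 0.43 for the oxygen-consuming enzymes at 24 h.

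limma-voom with quality weights called 1 higher and 7 lower at 12 h against 6 h, 2 and 1 at 24 h against 12 h, and 4 and 4 at 24 h against 6 h. Over all 19981 genes it called 4489 at 12 h against 6 h and 1093 at 24 h against 12 h. Fitting only the groups compared gave 3 lower at 12 h against 6 h, 0 and 0 at 24 h against 12 h, and 5 and 4 at 24 h against 6 h. At 12 h against 6 h DESeq2 called 3 lower and RLE factors 2; without a 24 h library up to 5 were.

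With 1 library left out, the members called higher against normoxia ran 14 to 19, 14 to 18 and 16 to 17 at 6, 12 and 24 h and those called lower 4 to 4, 6 to 7 and 6 to 10. At 12 h against 6 h they ran 0 to 2 and 0 to 5, at 24 h against 12 h 4 to 12 and 3 to 7, and at 24 h against 6 h 9 to 10 and 7 to 9. The medians ran 1.10 to 1.36, 1.24 to 1.34 and 0.50 to 0.56 for the oxygen-consuming and 0.38 to 0.51, 0.29 to 0.37 and 0.55 to 1.02 for the other enzymes.

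With the replicate block 2 of 186 calls were lost, SCD (-0.68) and TM7SF2 (0.74) at 24 h against 6 h, leaving 9 higher and 8 lower; the median of the oxygen-consuming enzymes at 24 h against normoxia was 0.60, and no other call changed. The samples share only a number, and no pairing was used. Depth limits TM7SF2, CYP51A1 and HSD17B7, with under 100 counts in their lowest libraries.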
